A study of Mus musculus with 7 samples.

Results

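Satellite cells are the muscle stem cells that lie quiescent against the fibres of skeletal muscle. The genes described here are those of mitochondrial fatty acid oxidation (FAO), followed in satellite cells of living old mice and of mice dead for 2 or 4 days. They were chosen by gene symbol alone: symbols starting with Acad, Acaa, Acat1, Acat2, Hadh, Cpt1, Cpt2, Ech, Eci with a number, Etf, Pcca, Pccb, Acsl, Acot or Decr, plus Mcee, Mut and Slc25a20. Of 13287 genes with a probe set of their own, 37 met this rule, and 33 of them passed the filter on mean signal and were tested. The rule itself uses no measured value, but it was set with earlier results of these data known. Only genes in the deposited table, which had been filtered for varying probe sets, could meet it. A further 23 protein-coding genes with such symbols had no probe set of their own here, among them Hadha, Hadhb, Cpt2, Cpt1b, Etfa, Acsl1 and Acad9, and are not analysed here. The rule is one of letters, so it also took Etf1, a translation termination factor with no part in FAO. Genes of other sites that were taken as well include Acaa1a and Acaa1b, thiolases of the peroxisome, and Acot1 and Acot12, thioesterases of the cytosol.

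RNA of sorted cells was hybridised to 7 Mouse Gene 1.0 ST arrays: 2 from living mice (old), 2 from mice 2 days post mortem (D2PM) and 3 from mice 4 days post mortem (D4PM). All mice carried Tg:Pax7-nGFP, in which Pax7 regulatory sequences drive a nuclear GFP, and the sort took GFP-positive cells. The living mice were 24 to 26 months old by the array labels and the study's text, whereas the series design text gives 24 to 26 weeks and the series title speaks of young adult mice. The dead mice were aged 8 to 12 weeks by a legend of the study. With the ages in the labels, age and death cannot be told apart in any comparison with the old cells, and only D4PM against D2PM sets one time after death against another. The sources do not state whether arrays of one group are of separate mice. The p-values given therefore reflect variation from array to array, which may be technical. Values are log2 levels on the RMA scale, on which a difference of 1 is a 2-fold change and levels of different genes cannot be compared. The array medians lay between 6.11 and 6.19.

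In FAO, a long-chain fatty acid is first joined to coenzyme A by an acyl-CoA synthetase and carried into the mitochondrion as a carnitine ester. There it is shortened in rounds of dehydrogenation, hydration, a second dehydrogenation and thiolysis, each of which releases acetyl-CoA, and the electrons of the first step pass through the electron transfer flavoprotein to the respiratory chain. A switch from this pathway to glycolysis has been reported when quiescent satellite cells (QSCs) begin to proliferate. The study describes the use of both as dependent on context.

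Most genes that passed the test were higher in post-mortem cells, among them all 3 genes measured for the steps from hydration to thiolysis, and the mitochondrial thioesterase gene Acot2 differed most. In D2PM against old cells 12 of the 33 genes were higher and 2 were lower (limma, Benjamini-Hochberg adjusted p under 0.05), while 10.3% of all 9944 genes tested were higher and 9.11% were lower. In D4PM against old cells 10 were higher and 5 were lower, against 12.4% higher and 15.5% lower of all genes. Between D4PM and D2PM 0 of the 33 genes passed the test in either direction, where 0.161% of all genes were higher and 0.0302% were lower. The median log2 difference of the 33 genes was 0.27 for D2PM against old and 0.27 for D4PM against old, beside medians of 0.00 and 0.00 over all genes. Both comparisons share the old arrays. The 10 genes that were higher at both times were Hadh, Echs1, Acaa2, Decr1, Ech1, Etfb, Mcee, Acot1, Acot2 and Acot13. Acadm and Pccb passed the test at D2PM alone, Acsl4 and Echdc2 were lower at both times, Acot9, Acot10 and Etf1 were lower at D4PM alone, and 16 genes passed no test. Passing at one time and not at the other is no test of a difference between the times.

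The differences from old cells rested in part on single arrays. Without old array 2 the median log2 difference of the 33 genes fell from 0.27 to 0.21 in D2PM against old. In D4PM against old it fell from 0.27 to 0.14. For D2PM against old it was 0.25 without D2PM array 1 and 0.29 without D2PM array 2. Over all genes the median was 0.00 in each of these fits. Fewer genes passed in them, among the 33 and over all genes alike. These fits leave 1 array in a group, so the numbers passing are not given. Old array 2 lay below old array 1 for 25 of the 33 genes, 75.8%, where it did so for 45.5% of all genes tested. The median gap between the old arrays, array 2 minus array 1, was -0.12 for the 33 genes and 0.01 for all genes. Without old array 2 the log2 difference of Acot2 was 1.75 in D2PM and 1.88 in D4PM against old. Those of Hadh, Echs1 and Acaa2 fell to 0.66, 0.57 and 0.43 in D2PM against old. In D4PM against old those of Acsl4, Acot10 and Echdc2 were -0.77, -0.82 and -0.55. With one fewer array the remaining sample is assumed to vary like the other groups.

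**Figure D1:**
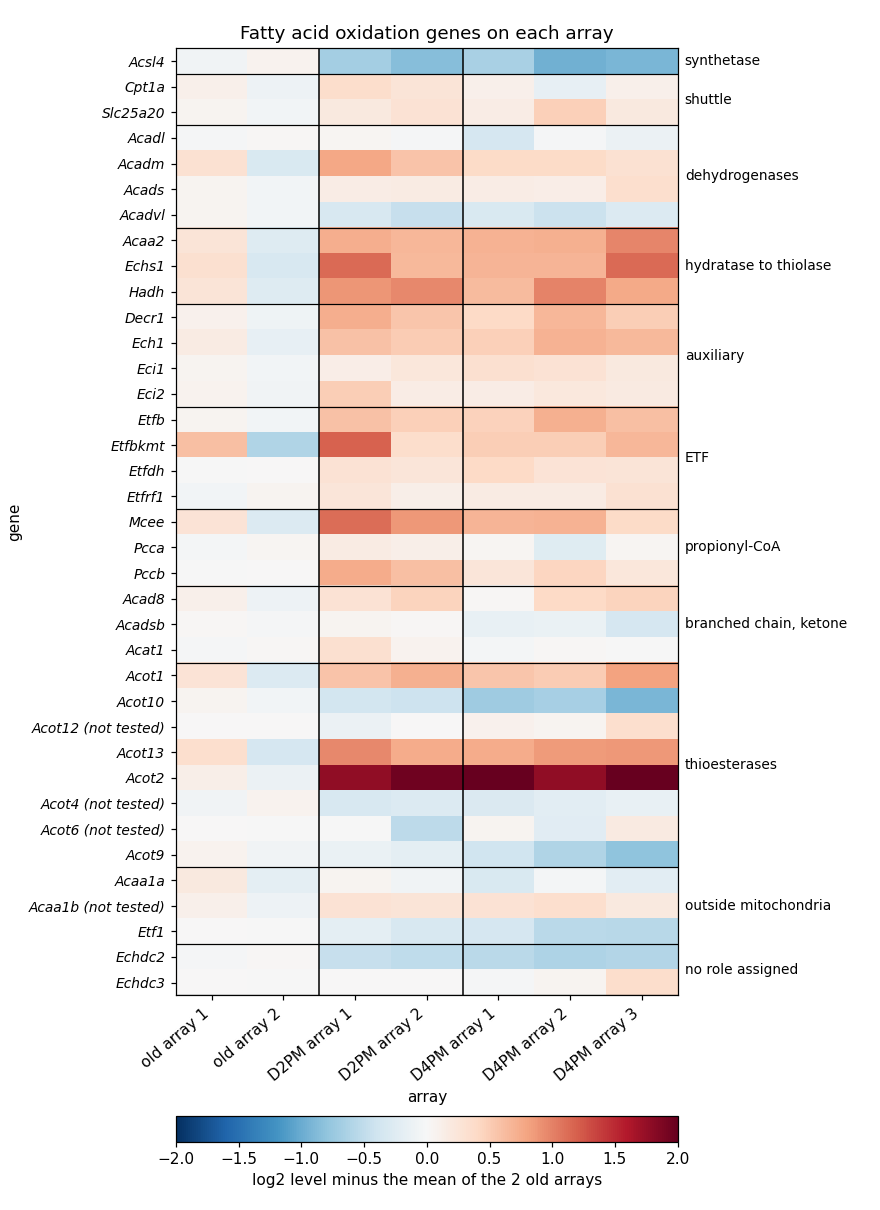
Each row is 1 of the 37 genes, grouped by role, and each column 1 of the 7 arrays; colour gives the log2 level minus the mean of the 2 old arrays (red higher, blue lower). Acot2 is the darkest red row on all 5 post-mortem arrays, and the rows from hydratase to thiolase are red on those 5 arrays, while Acsl4, Echdc2, Acot9 and Acot10 are blue.

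Acot2 had the largest difference of the 33 genes. It encodes a mitochondrial acyl-CoA thioesterase, an enzyme that splits acyl-CoA back into free fatty acid and coenzyme A inside the matrix. Its log2 level was 6.33 and 6.10 in old, 7.99 and 8.15 in D2PM and 8.30, 7.98 and 8.34 in D4PM cells. All 5 post-mortem arrays lay above both old arrays, with no overlap and a gap wider than the spread within any group. The level was 3.63-fold higher in D2PM than in old cells (log2 difference 1.86, SE 0.16, adjusted p = 6.3e-05), the 31st largest rise among 9944 genes. In D4PM it was 3.99-fold higher than in old cells (log2 difference 2.00, SE 0.15, adjusted p = 8.33e-06). Between D4PM and D2PM the log2 difference was 0.14, with a 95% interval from -0.19 to 0.46.

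Acot1, which encodes the closely related cytosolic thioesterase, lies next to Acot2 on chromosome 12. It measured 5.17 and 4.64 in old, 5.48 and 5.61 in D2PM and 5.46, 5.40 and 5.71 in D4PM cells. The old arrays were again the lowest, but the gap to old array 1 was small. The mean of the old arrays, 4.90, lay under the filter value of 5.12, so Acot1 was tested only because it was higher in the post-mortem groups. Its fold differences of 1.56 in D2PM and 1.54 in D4PM are given as a description. Without Acot1, 11 of 32 genes were higher in D2PM and 9 of 32 in D4PM than in old cells. Because Acot1 and Acot2 are near copies, how far their probes share transcripts is uncertain. The neighbouring copies Acot4 and Acot6 were below the filter, with Acot4 between 3.32 and 3.72 and Acot6 between 4.56 and 5.26 over the 7 arrays.

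The sequences upstream of Acot2 and Acot1 are shown because Acot2 had the largest difference and Acot1 is its closely related neighbour. That of Acadm is shown because it holds a motif searched for below. Each run is the 250 bases before the annotated start in RefSeq (GRCm38.p6), read 5′ to 3′ on the gene's strand. They lie at chr12:83987611-83987860 (plus strand), chr12:84009252-84009501 (plus strand) and chr3:153944644-153944893 (minus strand). Capitals mark a match to AAGGTCA, here on the opposite strand.
Acot2: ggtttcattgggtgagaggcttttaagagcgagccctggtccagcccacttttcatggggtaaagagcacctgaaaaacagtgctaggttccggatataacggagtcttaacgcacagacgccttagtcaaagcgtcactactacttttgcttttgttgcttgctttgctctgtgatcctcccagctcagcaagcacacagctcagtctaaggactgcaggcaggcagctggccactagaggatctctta
Acot1: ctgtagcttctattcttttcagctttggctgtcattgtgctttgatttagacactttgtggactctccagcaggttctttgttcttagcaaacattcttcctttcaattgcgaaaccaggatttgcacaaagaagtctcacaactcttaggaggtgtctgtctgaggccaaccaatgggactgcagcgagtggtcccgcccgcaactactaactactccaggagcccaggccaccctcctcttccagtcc
Acadm: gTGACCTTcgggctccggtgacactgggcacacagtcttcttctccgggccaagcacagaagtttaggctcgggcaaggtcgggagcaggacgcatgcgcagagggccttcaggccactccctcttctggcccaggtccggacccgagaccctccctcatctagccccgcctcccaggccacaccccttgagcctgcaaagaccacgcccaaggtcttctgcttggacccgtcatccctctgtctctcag

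The upstream windows of Acot2 and Acot1 shared 50.2% of aligned positions, gaps counted, which is no more than the 50.9% shared by the unrelated pair Acot2 and Acadm. AAGGTCA is the core letters bound by oestrogen-related receptors, known regulators of FAO genes, and was searched for on both strands of 300 bases around each start. It was found in 4.72% of all 32851 windows and, of the 31 FAO genes with a window, in Acadm, from 249 to 243 bases before the start, and in Acot4, from 13 to 7 bases before it. The longer form TNAAGGTCA, which contains the shorter one, stood in 1.28% of all windows and in 0 of the 31 genes. The direct repeat AGGTCANAGGTCA, a form bound by PPARs, stood in 0.0396% of all windows and in 0 of the 31 genes. Acaa2, Acat1, Acot13, Acot6, Decr1 and Etf1 had no window.

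Another thioesterase gene higher at both times was Acot13, which encodes a small enzyme found at mitochondria. Its log2 level was 7.27 and 6.59 in old, 7.89 and 7.66 in D2PM and 7.66, 7.78 and 7.80 in D4PM cells. All post-mortem arrays lay above both old arrays, although the old arrays differed from each other by more than old array 1 differed from the post-mortem arrays. It was 1.80-fold higher in D2PM (log2 difference 0.85, SE 0.20, adjusted p = 0.0136) and 1.76-fold higher in D4PM (adjusted p = 0.00672).

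Acot10 and Acot9, near-identical mitochondrial thioesterases whose probes may share transcripts, went the other way. Acot10 measured 6.40 and 6.30 in old, 5.98 and 5.93 in D2PM and 5.64, 5.69 and 5.43 in D4PM cells. The 3 groups formed 3 separate steps downwards without overlap. Only the whole fall passed the test: Acot10 was 1.70-fold lower in D4PM than in old cells (log2 difference -0.76, SE 0.13, adjusted p = 0.00156), whereas D2PM against old (-0.39, adjusted p = 0.0743) and D4PM against D2PM (-0.37, adjusted p = 0.546) did not. Acot9 was likewise lower in D4PM than in old cells (log2 difference -0.60, adjusted p = 0.00983), and its difference between D4PM and D2PM was -0.44 (adjusted p = 0.51). Acot12, a cytosolic acetyl-CoA hydrolase, was below the filter, at 4.73 to 5.19.

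Hydration, the second dehydrogenation and thiolysis were represented by 3 genes, and all 3 were higher at both times. Hadh, the dehydrogenase of medium- and short-chain 3-hydroxyacyl-CoA, measured 7.74 and 7.22 in old, 8.36 and 8.44 in D2PM and 8.11, 8.47 and 8.24 in D4PM cells. Every post-mortem array lay above both old arrays. Its level was 1.90-fold higher in D2PM (log2 difference 0.92, SE 0.19, adjusted p = 0.00678) and 1.74-fold higher in D4PM (log2 difference 0.80, SE 0.17, adjusted p = 0.00538). Echs1, the short-chain enoyl-CoA hydratase, measured 7.32 and 6.68 in old, 8.14 and 7.64 in D2PM and 7.69, 7.69 and 8.14 in D4PM cells. It was spread widely within every group, and all post-mortem arrays still lay above both old arrays. The log2 difference from old was 0.89 (SE 0.24, adjusted p = 0.0246) in D2PM and 0.83 (SE 0.22, adjusted p = 0.0148) in D4PM. Acaa2, the mitochondrial 3-ketoacyl-CoA thiolase, measured 7.35 and 6.83 in old, 7.81 and 7.75 in D2PM and 7.78, 7.81 and 8.07 in D4PM cells. Again the old arrays were the lowest, and they differed by 0.52 from each other. Acaa2 was 1.61-fold higher in D2PM (adjusted p = 0.0219) and 1.74-fold higher in D4PM (adjusted p = 0.00479).

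The enzymes that prepare unsaturated chains for these steps divided evenly. Decr1, the mitochondrial dienoyl-CoA reductase, measured 7.80 and 7.63 in old, 8.44 and 8.26 in D2PM and 8.11, 8.37 and 8.21 in D4PM cells. Its old arrays lay close together and below all others. The log2 difference was 0.64 (SE 0.15, adjusted p = 0.0126) in D2PM and 0.52 (SE 0.13, adjusted p = 0.0143) in D4PM. Ech1, a dienoyl-CoA isomerase, measured 8.06 and 7.72 in old, 8.47 and 8.39 in D2PM and 8.37, 8.58 and 8.54 in D4PM cells. Its old arrays were separate from the rest too, and it was 1.46-fold higher in D2PM (adjusted p = 0.0308) and 1.53-fold higher in D4PM (adjusted p = 0.00815). The enoyl-CoA isomerases Eci1 and Eci2 did not pass the test. Eci1 measured 7.27 and 7.17 in old, 7.36 and 7.44 in D2PM and 7.54, 7.51 and 7.41 in D4PM cells. Its post-mortem arrays lay above both old arrays, by a log2 difference of 0.27 in D4PM (95% interval 0.00 to 0.54, adjusted p = 0.123). For Eci2 the difference was 0.32 in D2PM (95% interval -0.01 to 0.64) and 0.18 in D4PM (-0.12 to 0.48).

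**Figure D2:**
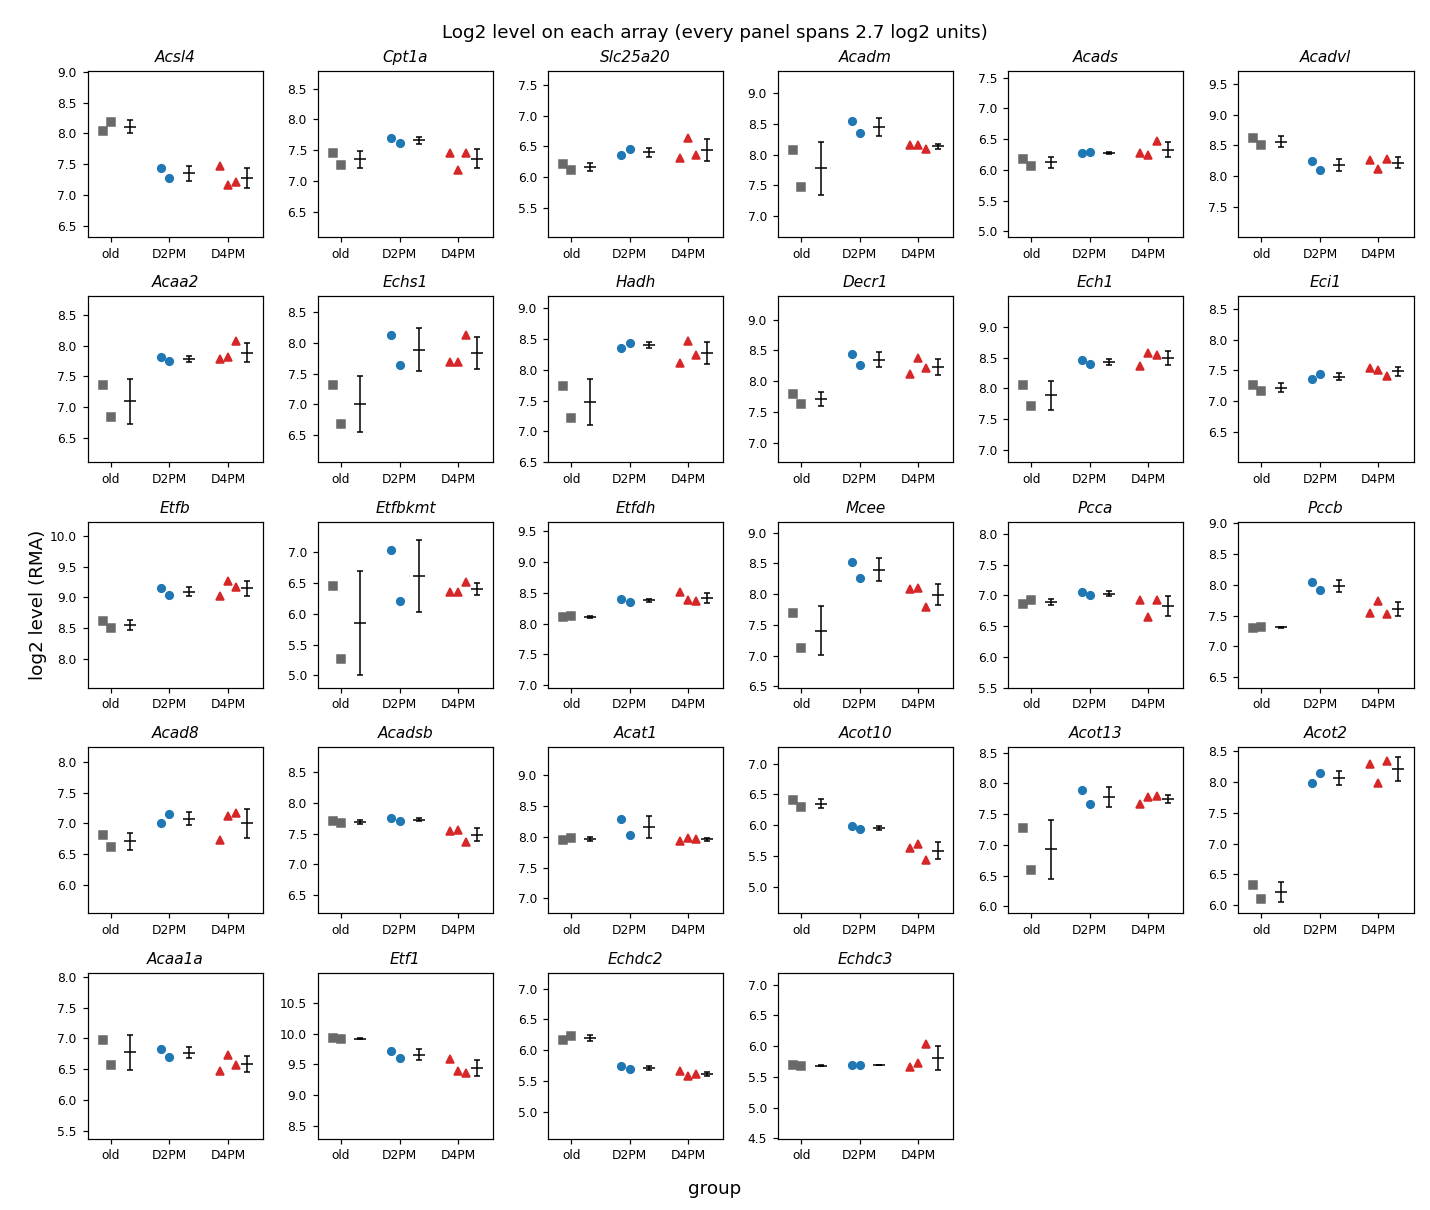
Each panel plots the log2 level (RMA) of 1 gene on each array by group, with squares for old, circles for D2PM and triangles for D4PM; the bar beside each group is its mean and SD (n = 2, 2 and 3), and every panel spans the same log2 range. The old arrays lie apart from each other in Acadm, Acaa2, Echs1, Hadh, Mcee, Acot13 and Etfbkmt, and Acot2 shows the widest gap between old and post-mortem arrays.

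Of the 3 genes measured for entry into the pathway, Acsl4 was lower at both times and the 2 of the carnitine shuttle passed no test. Acsl4, the one long-chain acyl-CoA synthetase measured, which prefers arachidonic acid, measured 8.04 and 8.18 in old, 7.44 and 7.27 in D2PM and 7.46, 7.15 and 7.20 in D4PM cells. Both old arrays lay above every post-mortem array. Its level was 1.69-fold lower in D2PM (log2 difference -0.76, SE 0.15, adjusted p = 0.00677) and 1.79-fold lower in D4PM (log2 difference -0.84, SE 0.14, adjusted p = 0.0014). The main synthetase of muscle, Acsl1, is not analysed here. Cpt1a, the carnitine palmitoyltransferase that is the regulated step of entry, measured 7.45 and 7.25 in old, 7.70 and 7.62 in D2PM and 7.45, 7.18 and 7.45 in D4PM cells. D2PM was the highest group, and D4PM overlapped old. No difference of Cpt1a passed the test: it was 0.30 for D2PM against old (95% interval -0.02 to 0.63), -0.29 for D4PM against D2PM (-0.59 to 0.01) and 0.01 for D4PM against old (-0.29 to 0.31). Slc25a20, the carrier that exchanges acylcarnitine for carnitine across the inner membrane, measured 6.21 and 6.12 in old, 6.36 and 6.45 in D2PM and 6.31, 6.65 and 6.36 in D4PM cells. All post-mortem arrays were above both old arrays, by differences of 0.24 (adjusted p = 0.295) and 0.28 (adjusted p = 0.157) that did not pass.

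The acyl-CoA dehydrogenases, which catalyse the first oxidation and differ in the chain length they accept, did not move as one. Acadm, the medium-chain enzyme, measured 8.08 and 7.47 in old, 8.55 and 8.35 in D2PM and 8.16, 8.16 and 8.08 in D4PM cells. D2PM lay above both other groups, and D4PM only just above old array 1. It was 1.60-fold higher in D2PM than in old cells (log2 difference 0.68, SE 0.19, adjusted p = 0.0265), and the D4PM difference of 0.36 did not pass (adjusted p = 0.136). Acadvl, the very-long-chain enzyme, measured 8.62 and 8.50 in old, 8.24 and 8.11 in D2PM and 8.26, 8.12 and 8.28 in D4PM cells. Here the old arrays were the highest without overlap, but the differences of -0.39 (adjusted p = 0.0715) and -0.34 (adjusted p = 0.0651) did not pass. Acads, the short-chain enzyme, measured 6.18 and 6.06 in old, 6.27 and 6.29 in D2PM and 6.27, 6.25 and 6.46 in D4PM cells. Its post-mortem arrays were slightly above the old ones, and the differences of 0.16 and 0.21 did not pass. Acadl, the long-chain enzyme, differed from old by 0.01 in D2PM (95% interval -0.31 to 0.33) and by -0.16 in D4PM (-0.45 to 0.13).

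Of 4 genes for the electron transfer flavoprotein and for proteins that act with it or on it, 1 passed the test. The flavoprotein passes on the electrons of the dehydrogenases. Etfb, its beta subunit, measured 8.62 and 8.50 in old, 9.15 and 9.04 in D2PM and 9.02, 9.26 and 9.17 in D4PM cells. Both old arrays were clearly below the rest, and the spread within each group was small. The log2 difference was 0.54 (SE 0.14, adjusted p = 0.0218) in D2PM and 0.59 (SE 0.13, adjusted p = 0.00583) in D4PM. Etfdh, the oxidoreductase that hands the electrons to ubiquinone, measured 8.10 and 8.12 in old, 8.40 and 8.36 in D2PM and 8.51, 8.38 and 8.37 in D4PM cells. All post-mortem arrays lay above both old arrays, yet the differences of 0.27 (adjusted p = 0.18) and 0.31 (adjusted p = 0.0755) did not pass. Etfbkmt, the methyltransferase that modifies the beta subunit, measured 6.45 and 5.26 in old, 7.03 and 6.20 in D2PM and 6.35, 6.35 and 6.52 in D4PM cells. It overlapped between groups and was the most variable of the 33 genes within old cells. A second, dimmer probe set of Etfbkmt stayed between 3.80 and 4.25. For the regulatory factor Etfrf1 the differences from old were 0.18 and 0.21, and neither passed.

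Propionyl-CoA, the product of odd-numbered chains and of some amino acids, is made into succinyl-CoA by a short pathway of its own. Mcee, the methylmalonyl-CoA epimerase, measured 7.69 and 7.12 in old, 8.53 and 8.27 in D2PM and 8.08, 8.11 and 7.79 in D4PM cells. The 3 groups did not overlap, with D2PM highest and D4PM in between. It was 1.99-fold higher in D2PM (log2 difference 0.99, SE 0.20, adjusted p = 0.00619) and 1.50-fold higher in D4PM (log2 difference 0.59, SE 0.18, adjusted p = 0.0301) than in old cells. Pccb, the beta subunit of propionyl-CoA carboxylase, measured 7.30 and 7.32 in old, 8.05 and 7.92 in D2PM and 7.54, 7.73 and 7.53 in D4PM cells. It showed the same order, and its old arrays were almost equal. Pccb was 1.60-fold higher in D2PM (log2 difference 0.68, SE 0.14, adjusted p = 0.00742), and in D4PM the difference of 0.29 did not pass (adjusted p = 0.106). Pcca, the partner subunit, measured 6.85 and 6.93 in old, 7.05 and 7.003 in D2PM and 6.93, 6.64 and 6.93 in D4PM cells. D4PM overlapped old, and its differences of 0.14 and -0.06 did not pass.

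The enzymes of branched-chain amino acid and ketone body use, which work on acyl-CoA in the same compartment, passed no test, and 0 of the 3 had an unadjusted p under 0.05 (limma). Acad8, the isobutyryl-CoA dehydrogenase, measured 6.81 and 6.61 in old, 7.001 and 7.15 in D2PM and 6.73, 7.11 and 7.16 in D4PM cells. One D4PM array lay among the old ones, and the differences were 0.37 (adjusted p = 0.156) and 0.29 (adjusted p = 0.182). Acadsb, which oxidises short branched chains, measured 7.71 and 7.67 in old, 7.75 and 7.71 in D2PM and 7.54, 7.55 and 7.36 in D4PM cells. The D4PM arrays were the lowest, by 0.24 below D2PM (95% interval of the difference -0.51 to 0.03). Acat1, the mitochondrial acetoacetyl-CoA thiolase, measured 7.95 and 7.99 in old, 8.28 and 8.04 in D2PM and 7.93, 7.99 and 7.96 in D4PM cells. D2PM array 1 stood out, and the D4PM and old arrays overlapped, with a difference of -0.01 (95% interval -0.29 to 0.27).

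Of the genes whose role in FAO is unclear or lies elsewhere, 2 were lower. Echdc2, which carries an enoyl-CoA hydratase domain, measured 6.17 and 6.23 in old, 5.73 and 5.69 in D2PM and 5.66, 5.59 and 5.61 in D4PM cells. The spread within each group was small and the groups did not overlap. It was 1.40-fold lower in D2PM (log2 difference -0.49, SE 0.13, adjusted p = 0.0231) and 1.50-fold lower in D4PM (log2 difference -0.58, SE 0.12, adjusted p = 0.00417). Echdc3 measured 5.69 and 5.68 in old, 5.70 and 5.70 in D2PM and 5.66, 5.73 and 6.03 in D4PM cells. Apart from D4PM array 3 it was level, and no difference passed. Etf1, the translation termination factor, measured 9.92 and 9.92 in old, 9.72 and 9.60 in D2PM and 9.59, 9.39 and 9.36 in D4PM cells. It stepped down from group to group, and D4PM was 1.39-fold lower than old (adjusted p = 0.0173). Without Etf1 and the peroxisomal thiolases 4 genes rather than 5 were lower in D4PM, and the number higher stayed at 10. These 10 include the cytosolic Acot1, and 9 were higher without it. Acaa1a measured 6.97 and 6.57 in old, 6.83 and 6.70 in D2PM and 6.46, 6.73 and 6.56 in D4PM cells. All 3 groups overlapped. Acaa1b was below the filter on every array, between 4.17 and 4.62.

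**Figure D3:**
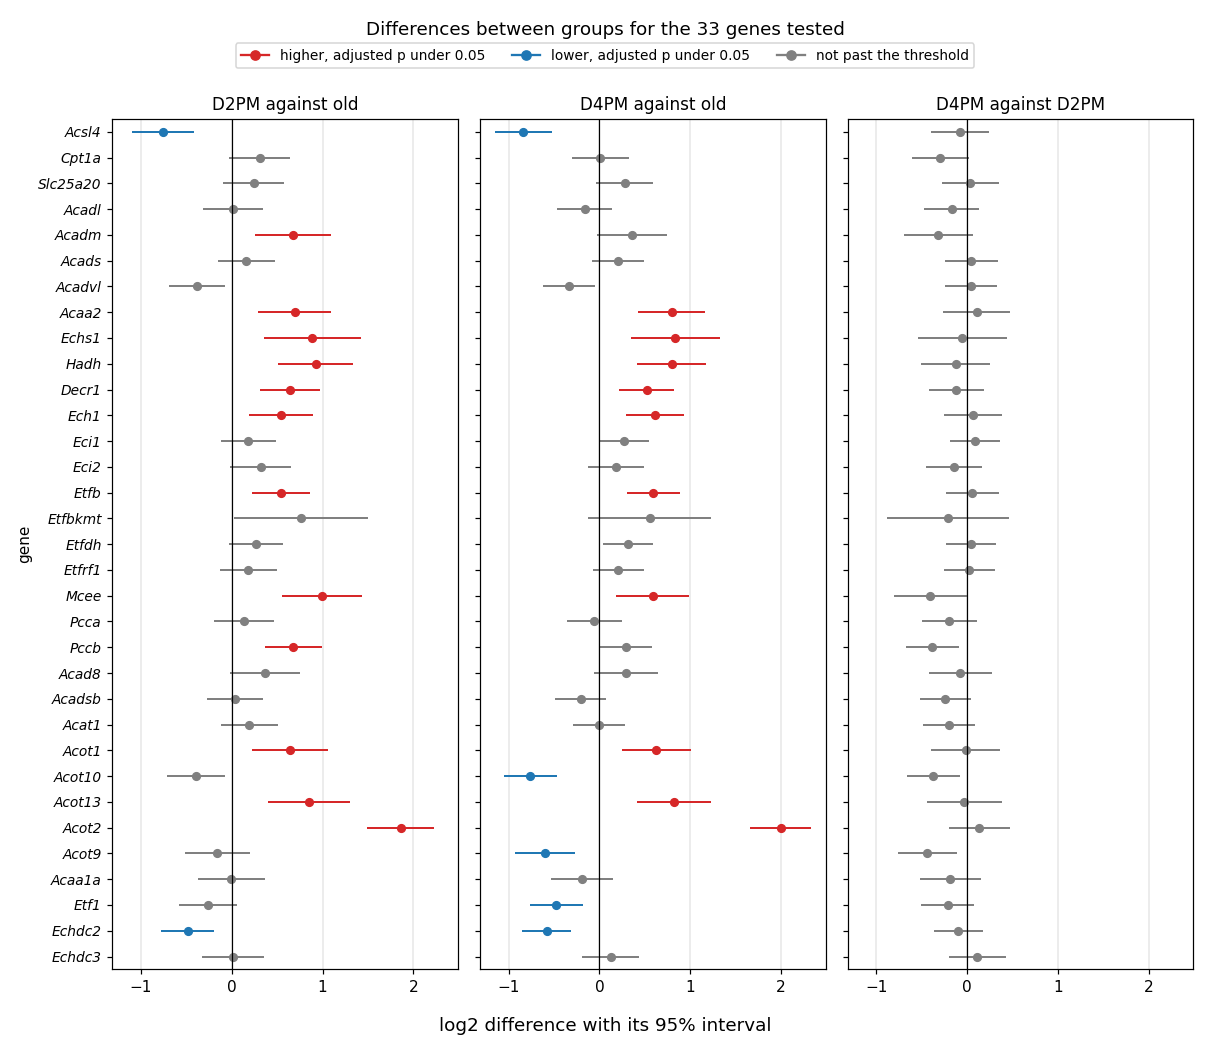
Points give the log2 difference and lines its 95% interval (limma) for each of the 33 genes tested, in 3 panels for D2PM against old, D4PM against old and D4PM against D2PM; red and blue mark genes past the adjusted threshold. In the panel of D4PM against D2PM no gene is coloured and every interval lies within 1 log2 unit of 0.

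The question of whether FAO genes differed between day 2 and day 4 after death was put to D4PM against D2PM. For all 33 genes the 95% interval of the log2 difference lay within 1 of 0, with a lowest bound of -0.88 and a highest of 0.47, so a 2-fold change of any of them lay outside its interval. The intervals reached 0.30 to either side at the median. The difference was below 0 for 22 genes and above 0 for 11, with a median of -0.10 beside -0.03 over all genes. At an unadjusted p under 0.05, limma counted 4 of the 33 genes, which were Acot9, Acot10, Mcee and Pccb, all lower in D4PM, and 772 of the 9944 genes tested. The methods' t-test, named there for general statistics and not for the arrays, counted 3 of the 33 at that level, and 0 after adjustment. By group means D2PM was the highest group for 16 of the 33 genes, D4PM for 10 and old for 7, and over the 9944 genes these numbers were 2878, 2878 and 4188.

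The wider pathway was read from lists of related genes. Counts in these lists and in the marker lists below stand beside 10.3% higher and 9.11% lower of all genes in D2PM against old. In D4PM against old these shares were 12.4% and 15.5%. A list of core mitochondrial beta-oxidation, which shares its 15 tested genes with the rule, held 7 genes higher and 0 lower in D2PM than in old cells, and 6 higher and 0 lower in D4PM. Peroxisomal beta-oxidation, the shortening of very long chains outside the mitochondrion, had 11 genes tested, of which 3 were higher and 1 was lower in D2PM and 0 were higher and 1 was lower in D4PM. The hydrogen peroxide-degrading catalase Cat measured 8.01 and 7.83 in old, 8.35 and 8.47 in D2PM and 8.24, 8.29 and 8.20 in D4PM cells. Cat was lowest on the old arrays and 1.40-fold higher in D2PM (adjusted p = 0.0272), and in D4PM it did not pass (adjusted p = 0.0742). The import receptors of peroxisomal enzymes went opposite ways, with Pex7 1.54-fold higher in D2PM (adjusted p = 0.0119) and Pex5 1.47-fold lower (adjusted p = 0.0218).

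Of 10 genes tested of fatty acid uptake and binding, which bring the fuel to the pathway, 4 were higher at both times and 0 were lower. The fatty acid translocase Cd36 measured 7.79 and 5.81 in old, 8.69 and 8.70 in D2PM and 9.33, 9.43 and 8.68 in D4PM cells. Its old arrays were far apart from each other, and both lay below the rest. Cd36 was 3.72-fold higher in D2PM (log2 difference 1.90, SE 0.47, adjusted p = 0.0169) and 5.09-fold higher in D4PM (adjusted p = 0.0023). The fatty acid-binding proteins Fabp3, of muscle and heart, and Fabp4, of adipocytes and capillary endothelium, were 2.16-fold (adjusted p = 0.0062) and 2.35-fold (adjusted p = 0.0253) higher in D2PM. In D4PM they were 2.15-fold (adjusted p = 0.00233) and 3.02-fold (adjusted p = 0.00303) higher. Fabp5 was 1.87-fold and 2.02-fold higher. The acyl-CoA-binding protein gene Dbi differed from old by 0.06 (adjusted p = 0.805) and -0.16 (adjusted p = 0.435).

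The 4 genes that make or remove malonyl-CoA, the inhibitor of Cpt1a, passed no test, with 1 of them at an unadjusted p under 0.05 against old (limma). In that group Fasn, the fatty acid synthase, had differences of -0.36 (adjusted p = 0.0874) and -0.35 (adjusted p = 0.0587). Of 16 transcription factors and sensors, 2 were higher at both times and 1 was lower in D4PM, a share near that of all genes called higher and below that of all genes called lower. Ppargc1a, the coactivator of mitochondrial genes, measured 5.48 and 5.53 in old, 6.32 and 6.27 in D2PM and 5.95, 6.00 and 5.95 in D4PM cells. The groups were tight and separate, with D2PM highest. Ppargc1a was 1.73-fold higher in D2PM (log2 difference 0.79, SE 0.13, adjusted p = 0.0024) and 1.37-fold higher in D4PM (adjusted p = 0.0137). Foxo1, a fasting-responsive factor, was 1.60-fold (adjusted p = 0.0203) and 1.64-fold (adjusted p = 0.00666) higher, and Ppard, the PPAR of muscle, was 1.46-fold lower in D4PM (adjusted p = 0.0131). Of 4 genes known to be induced by PPARs outside beta-oxidation, Pdk2, an inhibitory kinase of pyruvate dehydrogenase, was higher at both times (1.62-fold and 1.88-fold, adjusted p = 0.0327 and 0.00425) and the lipid droplet coat gene Plin2 in D4PM (1.60-fold, adjusted p = 0.0435). Angptl4, a secreted lipase inhibitor, was lower at both times (1.52-fold and 1.45-fold, adjusted p = 0.0242 and 0.0195). Between D4PM and D2PM 0 genes of these lists passed limma's adjusted threshold, and at an unadjusted p under 0.05 there were 2 of the 16 transcription factors and sensors and 2 of the 11 peroxisomal genes.

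Markers of cells other than satellite cells differed between the same groups. Of 13 myofibre markers tested, 10 were higher than in old cells at both times and 0 were lower, with Acta1, the skeletal muscle actin, 3.41-fold (adjusted p = 0.000158) and 3.96-fold (adjusted p = 1.84e-05) higher. The mean log2 level of the list was 7.28 to 7.62 in old, 8.32 to 8.51 in D2PM and 8.31 to 8.61 in D4PM cells. Of 12 endothelial markers, 5 were higher in D2PM and 9 in D4PM, with 0 lower, and their mean level ran from 5.90 to 6.55, 6.92 to 6.96 and 6.89 to 7.51 in the same order of groups. Endothelial Cdh5 was 3.15-fold (adjusted p = 0.00549) and 3.69-fold (adjusted p = 0.000965) higher. Tenocyte markers were higher for 3 of 7 genes at each time, with Fmod 2.85-fold and 2.82-fold higher, and adipocyte markers for 2 of 3, Lipe and Fabp4. Macrophage markers were higher for 0 of 4 and lower for 1, Cd14, and of 6 fibroadipogenic progenitor markers 1 was counted higher in D2PM. That marker, Lum, and the tenocyte markers Tnmd and Kera had old means under the filter and were tested only through the groups where they were higher. RMA values have no zero and no detection call, so none of these markers can be called absent.

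Satellite cell identity was read from 11 markers, whose mean level lay between 9.70 and 10.07 on all 7 arrays, while single markers moved both ways. In D2PM 2 were higher and 1 was lower than in old cells, and in D4PM 4 were higher and 2 were lower. Over all genes tested 10.3% were higher and 9.11% lower in D2PM, and 12.4% higher and 15.5% lower in D4PM. Calcr and Heyl were higher and Vcam1 lower at both times, and in D4PM Cd34 and Spry1 were also higher and Itga7 lower. Pax7, which defines these cells and drives the sort, differed from old by 0.23 (adjusted p = 0.364) in D2PM and 0.37 (adjusted p = 0.0971) in D4PM. Skeletal muscle fibres, endothelium and adipocytes also express many FAO genes. In bulk samples more cells of a type and more RNA per cell cannot be told apart, and the part of these other cell types in the FAO differences was not tested. Old array 2 was the lower of the old arrays in the mean level of core beta-oxidation (7.38 beside 7.62). It was also the lower in every marker list, satellite cell markers included (9.70 beside 9.81). Single genes went both ways. It was the lower for Cd36, Fabp4, Acta1, Cdh5, Hadh, Echs1 and Acaa2, and the higher for Scx, Kera, Col3a1, Pccb, Acsl4 and Echdc2.

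**Figure D4:**
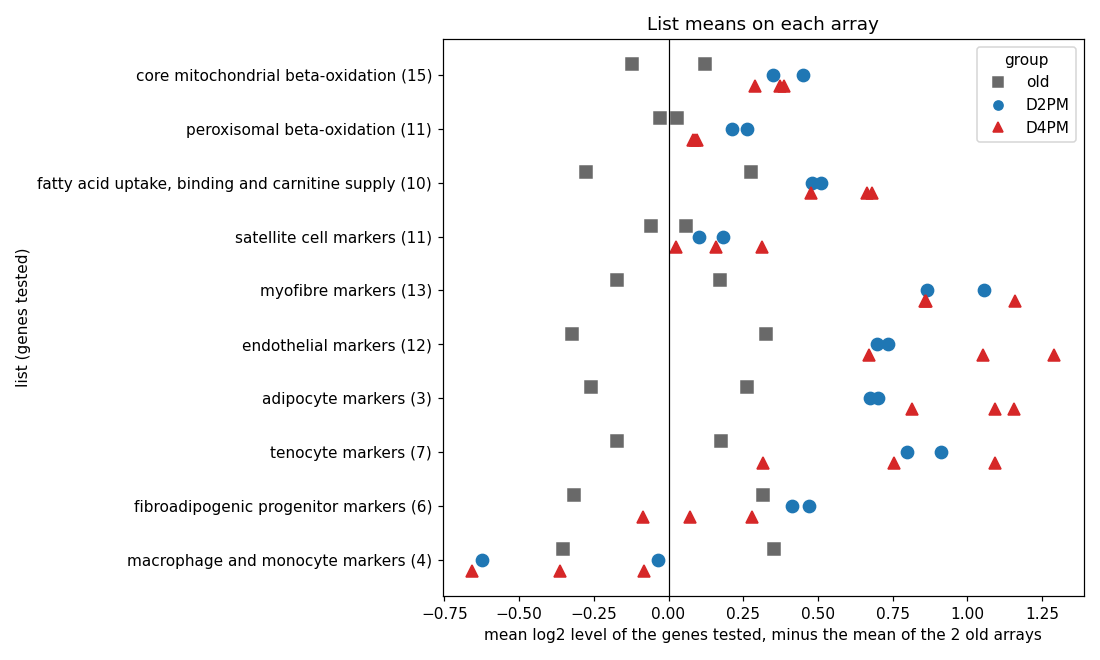
Each point is the mean log2 level of a list's tested genes (number in brackets) on 1 array, minus the mean of the 2 old arrays, with squares for old, circles for D2PM and triangles for D4PM. The post-mortem arrays lie above both old arrays in core mitochondrial and peroxisomal beta-oxidation and in fatty acid uptake. They do so too in the myofibre, endothelial, adipocyte and tenocyte lists, with the myofibre list shifted further than core mitochondrial beta-oxidation. In the satellite cell, fibroadipogenic progenitor and macrophage lists they overlap the old arrays.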

How the data were processed

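The authors sorted GFP-positive cells by flow cytometry, amplified their RNA and deposited log2 values of 7 GeneChip Mouse Gene 1.0 ST arrays made with RMA. Their processing notes list limma as well. The methods give the version of R, while those of RMA and limma are not given in the sources used here. The deposited table holds 18675 probe sets, none with an SD over the arrays below 0.0914, so it had been filtered for varying probe sets. Array number, not read depth, limits the precision. Many genes (38.8% of those tested, 7 of the 33 FAO genes) have the same value on at least 2 arrays.

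Probe sets with 1 gene in the platform annotation numbered 14480, of which 14425 matched RefSeq (GRCm38.p6), while 774 had several genes and 3421 none. Those with 1 gene were reduced to the brightest per gene. Genes with a mean under 5.12, the 25th percentile of the 14480 probe sets with 1 gene, were not tested. Group means were fitted with limma 3.58.1 in R 4.3.3 to all 7 arrays, with Benjamini-Hochberg adjustment over 9944 genes and a threshold of 0.05. The fit was tested on simulated data. Figures were drawn with matplotlib 3.10.9. The members, lists and alternatives were chosen with earlier results of these data known. Genes given on every array are, per role, up to 3 with the largest moderated statistic, with Acot1 added after its values were seen. In the related lists those are Cat, Dbi and Ppargc1a where described, up to 3 genes by the same statistic, and others that passed, named after their values were seen. The same replicate numbers do not pair the arrays: correlations of same-numbered deviations ran from -0.08 to 0.05.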

Additional observations from a re-analysis of the deposited data

How the results depend on the processing

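No gene that passed turned direction under any alternative run. In D2PM against old 14 genes passed (1931 of all 9944 genes tested). When only the arrays of the compared groups were fitted, 8 passed (1531 of all genes). By the methods' t-test with adjustment 0 passed (15 of all genes). That test is named in the methods for general statistics, while limma is named for the arrays. With a log2 change of at least 1 as well, 1 gene passed in limma (369 of all genes). In D4PM against old 15 passed (2770 of all genes), and 0 did by the adjusted t-test (14 of all genes). With a log2 change of at least 1 as well, 1 passed in limma (497 of all genes). At an unadjusted p under 0.05 the t-test counted 8 and 15 of the 33 genes, and limma 17 and 19. Over all 9944 genes limma counted 3270 and 3953 at that level. Leaving out each array in turn gave between 1 and 14 genes in D2PM against old, between 4 and 15 in D4PM against old and 0 in D4PM against D2PM. Without old array 2 the median log2 difference of the 33 genes was 0.21 in D2PM and 0.14 in D4PM. The replicate number as a block could not be fitted to D4PM array 3 and left it out. With this block 15 genes passed in D2PM against old (2044 of all genes) and 14 in D4PM against old (2483 of all genes). In D4PM against D2PM 0 did (54 of all genes). Filters, a second quantile normalisation, median centring, means over probe sets, a trended prior and array weights kept both counts against old within 1.5 times, and D4PM against D2PM at 0.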
